A study of Mus musculus with 17 samples.

Results

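N4bp1 knockout (KO) and wild-type (WT) bone marrow-derived macrophages of the mouse were compared after 4 h of R837, by the positions that RNA polymerase II occupied on their chromatin. The comparison used the 4 libraries titled with that time, 2 KO and 2 WT, of 16 immunoprecipitated libraries in all. R837, also called imiquimod, is a small molecule that activates Toll-like receptor 7 (TLR7). The other 12 libraries were untreated or had received R837 for 2 h or 6 h, with 2 libraries of each genotype at each time, and they entered the fit that estimates the spread. The labels give the genotype only as WT or N4bp1 KO, do not say which part of the gene was removed, and name no other allele or agent. Whether the 2 libraries of a group stem from different mice or cultures is not stated either, and each p-value therefore reflects how far libraries of a group differ, a spread that may be technical.

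N4BP1 is a cytosolic protein that restrains cytokine production in myeloid cells, and caspase-8 can cleave and so inactivate it. TLR7 sits in endosomes and signals through the adaptor MyD88 and the IRAK and TRAF6 proteins to the IkB kinase (IKK) complex. That complex releases NF-kB from its IkB inhibitors, and NF-kB then switches on cytokine, chemokine and feedback genes. The related kinases TBK1 and IKKε act on interferon regulatory factors, whose targets and those of the STAT proteins are known together as interferon-stimulated genes.

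Each deposited list gives the 1-base summits of the peaks of 1 library with the authors' score. The WT lists at 4 h held 16391 and 19710 summits and the KO lists 25612 and 24671. The shortest of the 16 lists, WT replicate 2 at 6 h, holds 8394 summits. To compare ranks, only the top 8394 summits of each list were kept. In these the WT lists touched 4230 and 4677 genes and the KO lists 5124 and 5046, and the score at rank 8394 was 15.2 and 16.7 in WT and 20.2 and 19.7 in KO. Rank 1 is the best summit of a library. The rank score of a gene is log2 of the ratio of 8395 to the rank of the best summit within 1 kb of the gene, and 0 where there is none. A difference of 1 is a 2-fold difference in rank, and ranks are compared only for the same gene, since they give a place in a list and not an amount of polymerase. KO replicate 1 shared 15.1% to 16.1% of its score values with the other 3 lists, which shared 71.5% to 77.7% with each other. Whether this sharing plays a part in the results below was not tested.

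The markers of macrophages were near the top of all 4 lists. Spi1, the myeloid transcription factor, held ranks between 23 and 32. Lyz2 held ranks between 42 and 191, Cd68 between 44 and 169, and Csf1r between 205 and 546, with overlap between the genotypes. Adgre1, at 113 and 72 in WT and 325 and 214 in KO, and Itgam, at 477 and 213 against 533 and 688, were behind in both KO libraries. Mertk was absent from 3 of the 4 lists, and Fcgr1, another of these markers, is described below. No summit of the shortened lists lay in any of the 8 B cell markers matched, the 9 of mast cells and basophils or the 9 of erythroid cells. Of the 12 T and NK cell markers 2 had such a summit, with a summed rank score between 0 and 0.16 per library. Of the 13 neutrophil markers 3 did, and the summed score of the list was 4.12 and 3.18 in WT and 6.86 and 3.07 in KO. Of the 11 dendritic cell markers 4 did, with 10.1 and 8.36 in WT against 5.58 and 8.36 in KO. Of the 12 fibroblast and stromal markers 2 did, Pdgfrb and Acta2, with a summed score of 0.31 and 0.64 in WT and 3.64 and 0.78 in KO. Acta2, a smooth muscle actin and the marker of that list that could be tested, held ranks 6773 and 5369 in WT and 951 and 4885 in KO (difference 1.48 ± 0.56, adjusted p = 0.531). The part of these markers in the results was not tested. In a bulk population, fewer cells with polymerase on a gene and less polymerase per cell cannot be told apart.

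N4bp1 itself carried a polymerase summit in every library (gene ID 80750, chromosome 8, 86841136 to 86885296 on GRCm38), at ranks between 541 and 16337 over the 16 deposited lists. Its best summit held ranks 2244 and 1280 in WT and 1713 and 782 in KO at 4 h. The values of the genotypes overlapped, with a difference of 0.55 ± 0.66 (SE, n = 2 against 2, limma adjusted p = 1). Leaving out KO replicate 2 brought the difference to -0.015. Since the labels do not give the deleted segment, these values check neither the deletion nor the labels.

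At an adjusted p under 0.05 (limma, Benjamini-Hochberg over the 8475 genes that held a summit in 2 or more of the 16 shortened lists), 14 genes stood higher in KO and 20 stood lower. These are 0.165% and 0.236% of the genes tested, and 0.401% together. Without the adjustment, 601 genes (7.09%) had a p under 0.05, of which 406 (4.79%) were higher in KO and 195 (2.3%) lower. The counts without adjustment given for each list below are to be read beside these shares. Both KO libraries lay above both WT libraries for 1397 genes (16.5%) and below both for 716 (8.45%). The median difference of all genes tested was 0, and it was 0.12 over the 6617 with a summit in a shortened list of 4 h. The other genes are at 0 in all 4 libraries, so they cannot separate the genotypes and they lower these shares. With the lists left at their deposited length, 33 genes stood higher and 17 lower and the median of all genes was 0.19. The genes called higher were led by the chemokine Ccl5, the cystine transporter Slc7a11 and the NF-kB target Traf1. Those called lower were led by the immunoglobulin receptor Fcgr1, the chemokine Ccl7 and Glipr1, and 6 of the 20 were interferon-stimulated genes, with smaller differences (-3.04 to -1.88). A best summit can lie at different positions in different libraries. Of the 28 called genes with a summit in both genotypes, 24 had any KO best summit within 500 bp of any WT one. Ccl5, Traf1, Glipr1 and Ifit3 did not. Best summits of the same genotype could still lie far apart, as in WT for Rsad2 and Ifit2 and in KO for Il4ra and Traf1.

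**Figure D1:**
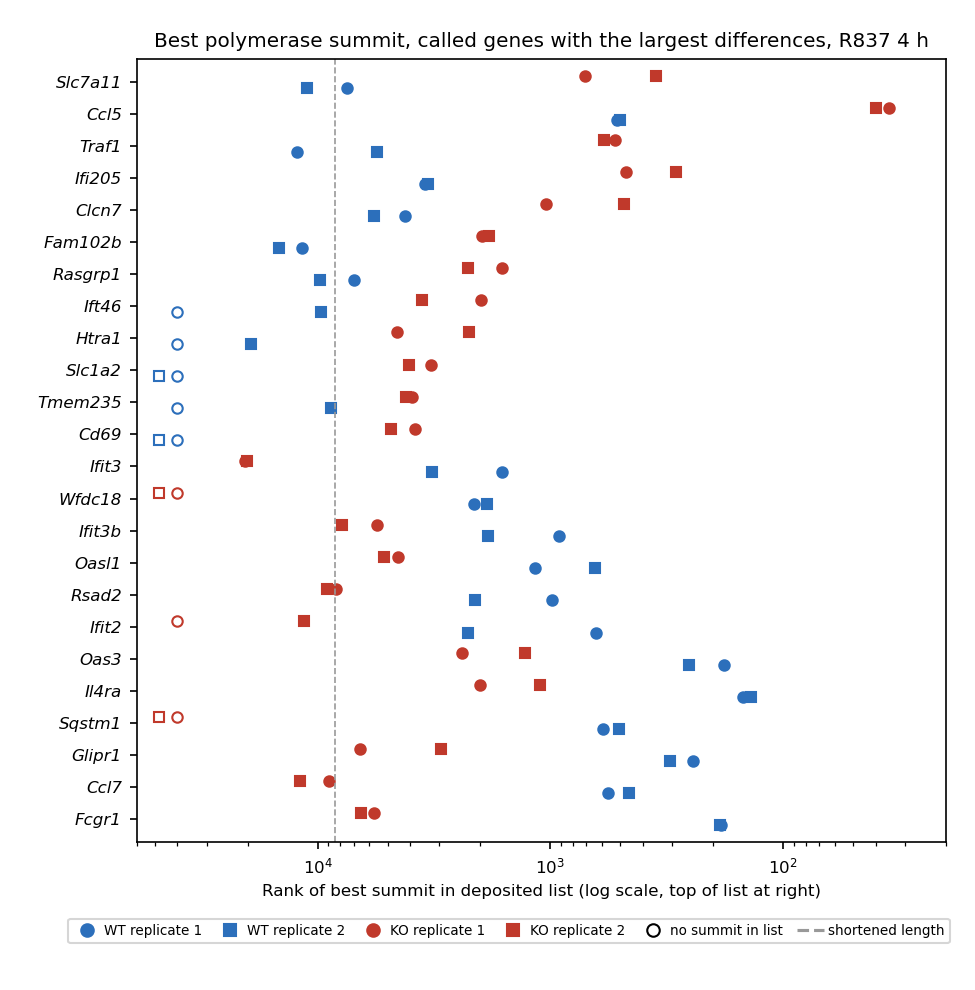
Rank of the best polymerase summit in the deposited list of each library at 4 h of R837 (log axis, best rank at the right), for the 12 genes with the largest differences among those called higher and the 12 among those called lower in KO. Blue is WT and red is KO, circles are replicate 1 and squares replicate 2, open symbols at the left mark a list with no summit in the gene, and the dashed line is rank 8394; in all 24 genes both libraries of 1 genotype lie to the same side of both of the other.

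The spread behind these calls came mostly from the other times. When limma was fitted to the 4 libraries at 4 h alone, 0 genes passed in either direction and 466 had an unadjusted p under 0.05. With these 4 lists at 16391 summits each, again 0 passed and 648 had an unadjusted p under 0.05. Calls also moved with single libraries: 9 higher and 43 lower without WT replicate 1, 11 and 46 without WT replicate 2, 64 and 15 without KO replicate 1, and 64 and 21 without KO replicate 2. Of the 34 genes called, 20 had both libraries of the lower genotype at 0, 12 differed by less than 1.5, and 8 had no summit in any of the other 12 shortened lists. Those 8 are Ifit3, Wfdc18, Gm8369, Phf11d, Col9a3, Trim12a, Slc1a2 and Tmem235: they entered the test only through the libraries of 4 h, and their spread comes mostly from groups at 0, so their ranks are given below as a description and their calls support nothing. The fits that left out 1 library cannot set these 8 genes apart, since with groups at 0 they stayed called in each. Other called genes, such as Il23a, Cd69, Rsad2, Ifit2 and Ifit3b, differed by 0 at 2 of the other times. Part of their spread may thus also come from groups at 0. Traf1, Slc7a11, Fcgr1, Glipr1, Ccl7 and Ccl5 were also called with the lists as deposited or shortened to 4000 summits, with genes rather than summits ranked, with only genes that had a summit in 2 of the lists at 4 h, and with gene regions extended by 3 kb or not at all. Scored by the number of summits, these 6 genes did not pass (adjusted p between 0.168 and 1).

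Of the interferon-stimulated genes, 36 of 40 could be tested; 0 were called higher in KO and 6 were called lower, Ifit3 included. That is 16.7% of the list called lower, against 0.236% of all genes tested. This share counts Ifit3, whose call supports nothing, since it was at 0 in the shortened lists of all other times. Both KO libraries lay below both WT libraries for 24 of the 36 (66.7%, against 8.45% of all genes) and above both for 2. All 36 had a summit in a shortened list of 4 h, against 6617 of the 8475 genes tested, which makes the comparison of shares uneven. The median difference of the list was -1.21, against 0 over all genes tested and 0.12 over those with such a summit. It was -0.96 without WT replicate 1. Scored by the number of summits in the gene instead of the best rank, it was -0.5. At an unadjusted p under 0.05, 14 members were lower and 1 was higher. The summed rank score of the list was 109 and 95.4 in the WT libraries and 62.3 and 58.5 in the KO libraries.

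The 6 called lower were Oas3, Ifit2, Rsad2, Oasl1, Ifit3b and Ifit3. Oas3, a synthetase of the oligoadenylates that activate RNase L against viral RNA, held ranks 180 and 254 in WT and 2404 and 1282 in KO. All 4 best summits lay near its start, and the KO ranks were the worse by a wide margin (difference -3.04 ± 0.59, adjusted p = 0.0471). Rsad2, which encodes the antiviral enzyme viperin, held ranks 986 and 2115 in WT and 8376 and 9127 in KO. Its KO summits were near the end of the shortened lists or beyond it (difference -2.54 ± 0.41, adjusted p = 0.0151). The summit of WT replicate 2 lay at the far end of Rsad2 and those of the other libraries near its start. The call of Oas3 was lost without WT replicate 1, WT replicate 2 or KO replicate 1 (adjusted p = 0.194, 0.0832 and 0.18). With the lists as deposited Ifit2 and Ifit3 were called, and the other 4 were not (adjusted p between 0.129 and 0.24). With the gene span alone Oas3, Rsad2 and Ifit2 were not called (adjusted p = 0.0566, 0.376 and 0.314), and Oasl1, Ifit3b and Ifit3 were.

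The IFIT proteins bind viral RNA and are among the most strongly interferon-induced proteins known. Ifit2 held ranks 637 and 2259 in WT, had no summit in KO replicate 1 and rank 11450 in KO replicate 2 (difference -2.81 ± 0.49, adjusted p = 0.0244). Its summit in WT replicate 2 lay at the far end, and the others in the gene body. Ifit3 held ranks 1616 and 3228 in WT and 20438 and 20126 in KO (difference -1.88), and it had no summit in the shortened lists of any other time. Ifit3b held ranks 921 and 1847 in WT and 5582 and 7820 in KO (difference -2.34 ± 0.36, adjusted p = 0.0113), and its best summit also lay in the region of Ifit1bl1. In each of these genes every KO summit ranked behind both WT summits. Ifit3 and Ifit3b are close copies of each other, so reads could be split between them and their separate values are uncertain. Oasl1, an inhibitor of Irf7 translation, held ranks 1159 and 640 in WT and 4495 and 5190 in KO (difference -2.49 ± 0.48, adjusted p = 0.0491). Ifit2 lost its call without either KO replicate (adjusted p = 0.0976 and 0.0842), Ifit3b without KO replicate 2 (0.0512), and Oasl1 without WT replicate 2 or either KO replicate (0.169, 0.0882 and 0.118). With genes rather than summits ranked, Ifit2, Ifit3 and Rsad2 were not called (adjusted p = 0.131, 0.212 and 0.101).

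The promoters of Ifit3, Ifit3b, Rsad2 and Oas3 are shown because the interferon-stimulated response element (ISRE), a motif known from the promoters of interferon-induced genes, stood in 4 of the 6 called interferon-stimulated genes. It did not stand in the windows of Ifit2 and Oasl1, which are not printed. Of the 4, Ifit3 is a gene whose call supports nothing. The stretches of 80 bases below are from RefSeq (GRCm38.p6), 5′ to 3′ on the strand of the gene, and capitals mark each match to the ISRE core, GAAA and GAAA with any 2 bases between them, or to its reverse complement. The 2 Ifit stretches, chr19:34583338-34583417 and chr19:34607734-34607813 on the plus strand, are the same in every base. Those of Rsad2, chr12:26456528-26456607, and Oas3, chr5:120777690-120777769, are on the minus strand.
Ifit3: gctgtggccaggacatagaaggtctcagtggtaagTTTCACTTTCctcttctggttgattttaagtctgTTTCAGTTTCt
Ifit3b: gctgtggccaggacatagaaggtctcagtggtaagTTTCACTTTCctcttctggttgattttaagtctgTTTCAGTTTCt
Rsad2: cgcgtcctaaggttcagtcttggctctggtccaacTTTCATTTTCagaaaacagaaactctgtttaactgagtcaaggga
Oas3: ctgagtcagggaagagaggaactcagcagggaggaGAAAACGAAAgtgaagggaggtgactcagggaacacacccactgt

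Over windows from 250 bases before to 50 after each gene's start, searched on both strands, the ISRE core stood in 5 of the 16 called-lower genes with a promoter in the table (31.2%): Ifit3, Ifit3b, Oas3, Rsad2 and Trim12a. Ifit3 and Trim12a entered the test only through the libraries of 4 h, and their calls support nothing. The printed stretches of Ifit3 and Ifit3b are the same, so these genes are not separate instances. The core stood in 1 of the 9 called-higher genes with a promoter, Ifi205. In the list of interferon-stimulated genes it stood in 17 of 30 (56.7%). The share was 4% of the 6970 tested genes with a promoter (279) and 3.99% of all 27025 promoters. A match to these letters is a description of the window and does not show that a factor was bound.

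Others of the list did not pass the test. Stat2, a transcription factor of type I interferon signalling, held ranks 400 and 898 in WT and 4933 and 3818 in KO (difference -2.86 ± 0.81, adjusted p = 0.275), and 3 of its 4 best summits also lay in the region of Apof. Oas1a held ranks 1816 and 432 in WT and 5302 and 7579 in KO (difference -2.84 ± 0.69, adjusted p = 0.146). Irf7, the regulator that amplifies interferon genes downstream of TLR7, held ranks 147 and 541 in WT and 1678 and 1452 in KO (difference -2.47 ± 0.64, adjusted p = 0.191). In all 3 genes the genotypes did not overlap. Isg15, a ubiquitin-like protein, held ranks 32 and 133 in WT and 231 and 154 in KO (difference -1.53 ± 0.73, adjusted p = 0.72). The members above 0 included Gbp5, an interferon-induced GTPase, with ranks 7294 and 17957 in WT and 2031 and 3872 in KO (difference 1.48 ± 0.50, adjusted p = 0.425). Irf9 also stood above 0, at 0.89 ± 0.70 (adjusted p = 1), but its summit is shared with Rnf31.

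**Figure D2:**
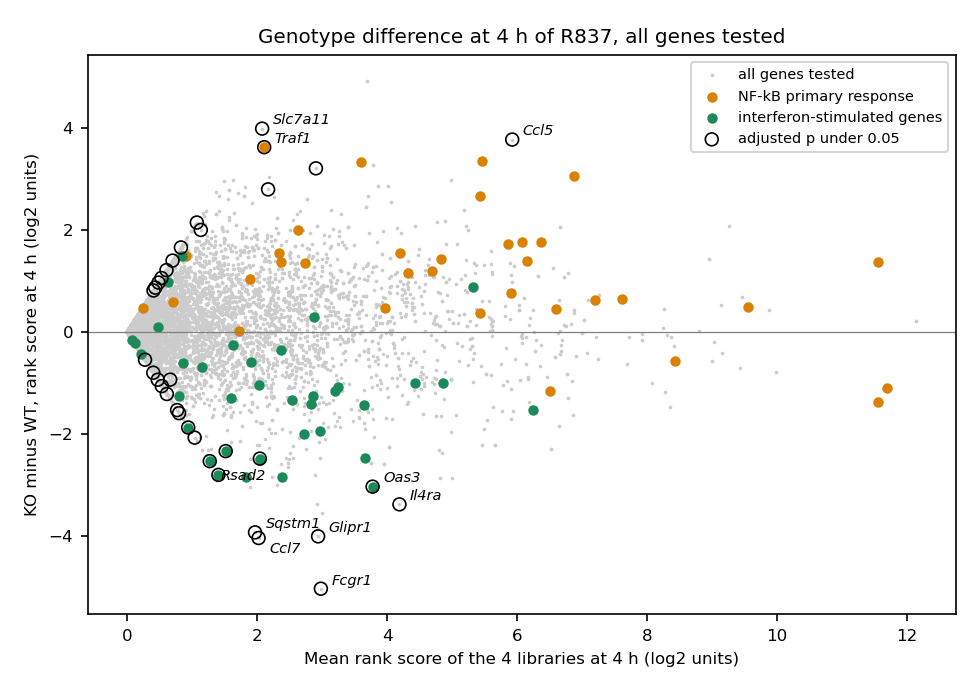
KO minus WT rank score at 4 h (vertical, log2 units) against the mean rank score of the 4 libraries (horizontal, log2 units) for the 8475 genes tested (grey points), with genes of the NF-kB primary response in orange, interferon-stimulated genes in green and the 34 genes with an adjusted p under 0.05 ringed. Most green points lie below 0, with a median of -1.21, and most orange points above 0, with a median of 1.27.

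The NF-kB primary response list holds genes that NF-kB switches on soon after a Toll-like receptor is engaged, and all but 1 of its 35 genes were tested. Among the 34, 1 was called higher in KO and 0 were called lower (2.94% and 0%, against 0.165% and 0.236% of all genes tested). Both KO libraries lay above both WT libraries for 22 of the 34 (64.7%, against 16.5% of all genes) and below both for 2. All 34 had a summit in a shortened list of 4 h, against 6617 of the 8475 genes tested. The median difference was 1.27, against 0 over all genes tested and 0.12 over those with such a summit. It was 0.81 without KO replicate 1. Scored by the number of summits it was 0. At an unadjusted p under 0.05, 14 members were higher and 0 lower. The summed rank score was 153 and 163 in WT and 205 and 189 in KO.

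Traf1, an adaptor that binds cIAP proteins at TNF family receptors, was the member that rose. It held ranks 12203 and 5550 in WT and 525 and 587 in KO, with both KO libraries far ahead of both WT libraries (difference 3.62 ± 0.48, adjusted p = 0.00434). Its summit lay at the far end in KO replicate 1 and in the gene body in the other libraries. The other members named here did not pass the test. Tnfaip2 held ranks 1060 and 353 in WT and 34 and 106 in KO (difference 3.35 ± 0.79, adjusted p = 0.131). Nfkb2, whose precursor p100 is processed in the alternative NF-kB pathway, held ranks 580 and 419 in WT and 79 and 76 in KO (difference 2.67 ± 0.80, adjusted p = 0.317). Tnfaip3, which encodes the feedback deubiquitinase A20, held ranks 155 and 229 in WT and 42 and 73 in KO (difference 1.77 ± 0.63, adjusted p = 0.474). The groups did not overlap in any of these 3. Nfkbia, which encodes the inhibitor IkBα, overlapped between the genotypes, at 22 and 8 in WT and 6 and 15 in KO (difference 0.48 ± 0.85, adjusted p = 1). The 2 members whose KO ranks were both behind the WT ranks were Ccl3 and Sod2. Sod2, a mitochondrial superoxide dismutase, held ranks 78 and 49 in WT and 140 and 137 in KO (difference -1.16 ± 0.63, adjusted p = 0.83).

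Of the 14 genes for NF-kB subunits, IkB proteins and their partners, 0 were called in either direction. Both KO libraries lay above both WT libraries for 8 (57.1%, against 16.5% of all genes) and below for 1 (7.14%, against 8.45%). At an unadjusted p under 0.05, 3 were higher and 0 lower, and the median difference of that list was 0.96. Nfkb1 held ranks 1618 and 4976 in WT and 1021 and 925 in KO (difference 1.55 ± 0.61, adjusted p = 0.569). Nfkbiz, which encodes the nuclear IkBζ, held ranks 187 and 281 in WT and 39 and 117 in KO (difference 1.76 ± 0.93, adjusted p = 0.8). Nfkbie, another IkB gene, held ranks 4285 and 1705 in WT and 385 and 1198 in KO (difference 1.99 ± 0.68, adjusted p = 0.437), but 3 of its 4 best summits also lay in the region of Slc35b2.

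The kB site, the decameric element that NF-kB binds, is shown for Nfkb2, Cxcl1 and Cxcl2, whose KO summits all ranked ahead of the WT summits. Capitals mark matches to the kB core, GGG and TTCC with any 3 bases between them, or to its reverse complement, overlapping matches included. The stretches lie at chr19:46304664-46304743, chr5:90891121-90891200 and chr5:90903767-90903846, all on the plus strand of GRCm38.p6 (RefSeq).
Nfkb2: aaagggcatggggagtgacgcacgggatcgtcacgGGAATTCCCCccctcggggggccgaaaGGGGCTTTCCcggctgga
Cxcl1: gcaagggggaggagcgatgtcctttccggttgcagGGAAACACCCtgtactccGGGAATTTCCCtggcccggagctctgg
Cxcl2: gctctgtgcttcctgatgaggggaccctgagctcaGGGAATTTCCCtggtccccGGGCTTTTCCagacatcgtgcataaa

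The kB core stood in 11 of the 28 NF-kB primary response genes with a promoter in the table (39.3%), against 7.59% of the 6970 tested genes with one (529) and 6.31% of all promoters. It stood in 0 of the 9 called-higher genes with a promoter and in 4 of the 16 called lower (25%): Ifit2, Il4ra, Oas3 and Vma21. Both cores therefore stood in the window of Oas3. Absence from these windows says only that these letters are not within them.

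Among cytokines and chemokines, 27 of 37 matched genes could be tested, and 1 rose in KO while 2 fell (3.7% and 7.41%, against 0.165% and 0.236% of all genes). Both KO libraries lay above both WT libraries for 10 of the 27 (37%, against 16.5% of all genes) and below for 6 (22.2%, against 8.45%). The median difference was 0.21, became 0 without KO replicate 1 or with the number of summits as the score, and was 0.65 with the lists as deposited. Ccl5, which recruits T cells and monocytes and is driven by both NF-kB and interferon regulatory factors, rose. Its best summit held ranks 518 and 503 in WT and 35 and 40 in KO. These summits lay at different positions within the gene (chromosome 11, 83525778 to 83530518), at 83529389 and 83527619 in WT and 83528298 and 83528463 in KO, and the smallest distance between a KO and a WT summit was 679 bp. The ranks of the replicates of each genotype lay close together and those of the genotypes far apart (difference 3.77 ± 0.56, adjusted p = 0.00867).

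Ccl7, a monocyte chemoattractant on the same chromosome (82045712 to 82047525), fell, with ranks 565 and 458 in WT and 8951 and 11900 in KO. Neither KO summit was within the shortened lists (difference -4.04 ± 0.59, adjusted p = 0.00803). Its neighbour Ccl2, which acts on the same receptor, held ranks 448 and 943 in WT and 2641 and 4988 in KO, without passing the test (difference -2.48 ± 0.75, adjusted p = 0.319). Ccl12, a further gene of that cluster, held ranks 4290 and 3294 in WT and 7228 and 15488 in KO (difference -1.05 ± 0.33, adjusted p = 0.355). In all 3 genes of the cluster both KO libraries lay behind both WT libraries. Il23a, the subunit that makes interleukin-23, held ranks 3473 and 3738 in WT and 25108 and 18238 in KO, and it fell (difference -1.22 ± 0.14, adjusted p = 0.00164). Both KO libraries were at 0, and the genotypes differed by 0 in untreated cells and at 2 h and by 0.12 at 6 h. The small SE of Il23a may thus come largely from groups at or near 0. All 4 best summits lay outside the span of the gene itself. With 4000 summits kept the difference of Il23a was -0.15 (adjusted p = 0.584). Its call was also lost with regions extended by 3 kb (adjusted p = 0.628) and with genes rather than summits ranked (0.415). Ccl9, a chemokine for myeloid cells, had replicates far apart in WT, at ranks 10614 and 32, and ranks 22622 and 9124 in KO, so that its difference of -4.02 ± 2.41 rested on WT replicate 2 (adjusted p = 0.874).

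The neutrophil chemokines Cxcl1 and Cxcl2 had large differences that did not pass. Cxcl1 held ranks 4140 and 1170 in WT and 115 and 421 in KO (difference 3.32 ± 0.72, adjusted p = 0.0805). Cxcl2 held ranks 434 and 99 in WT and 20 and 31 in KO (difference 3.06 ± 0.78, adjusted p = 0.187). In both genes the KO libraries ranked ahead of the WT libraries. Ccl3, Ccl4 and Tnf were at the very top in both genotypes: Ccl3 held ranks 3 and 1 in WT and 4 and 5 in KO, Ccl4 1 and 3 against 7 and 2, and Tnf 5 and 4 against 1 and 3. A difference between such ranks moves by whole places only, and none of the 3 passed.

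Il12b, the subunit shared by interleukin-12 and interleukin-23, had no summit in either deposited WT list and held ranks 1191 and 4547 in KO (difference 1.85 ± 0.86, adjusted p = 0.709). Both KO summits lay at the far end of the gene, in the region chr11:44414838-44415023. Il6 had no summit in either WT list, rank 7460 in KO replicate 1 and none in KO replicate 2. Il10, which encodes an anti-inflammatory cytokine, held ranks 563 and 370 in WT and 771 and 1741 in KO (difference -1.34 ± 0.70, adjusted p = 0.79). Il1b overlapped between the genotypes, at 992 and 395 in WT and 177 and 442 in KO (difference 1.16 ± 0.85, adjusted p = 0.97). Cxcl10, a chemokine known as an interferon target, also overlapped, at 4674 and 8396 in WT and 4121 and 11851 in KO, and its summit also lay in the region of Art3.

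For the components of the pathway from Toll-like receptors to IKK and caspase-8, 43 of 49 genes were tested and 0 were called by limma in either direction. At an unadjusted p under 0.05, 5 were higher in KO and 0 lower. The median difference was 0.37. Both KO libraries lay above both WT libraries for 13 genes (30.2%, against 16.5% of all genes) and below for 4 (9.3%, against 8.45%). Tlr7, the receptor for R837, held ranks 4588 and 2125 in WT and 2613 and 1832 in KO (difference 0.51 ± 0.56, adjusted p = 1). Casp8 held ranks 3061 and 4769 in WT and 4611 and 12997 in KO (difference -0.70 ± 0.73, adjusted p = 1). Ikbke, which encodes IKKε, held ranks 780 and 490 in WT and 562 and 562 in KO (difference 0.14 ± 0.63, adjusted p = 1). The genotypes overlapped in these 3 genes. The largest differences of the list were those of Birc2, Irak4 and Tab2. Birc2, which encodes the ubiquitin ligase cIAP1, held ranks 4453 and 8738 in WT and 882 and 3602 in KO (difference 1.78 ± 0.74, adjusted p = 0.629). Irak4, the first kinase that MyD88 recruits, held ranks 4504 and 4191 in WT and 1434 and 1447 in KO (difference 1.59 ± 0.69, adjusted p = 0.654), at a summit also in the region of Pus7l. Tab2, a subunit of the TAK1 kinase complex, held ranks 6288 and 7875 in WT and 2134 and 2610 in KO (difference 1.58 ± 0.57, adjusted p = 0.498).

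**Figure D3:**
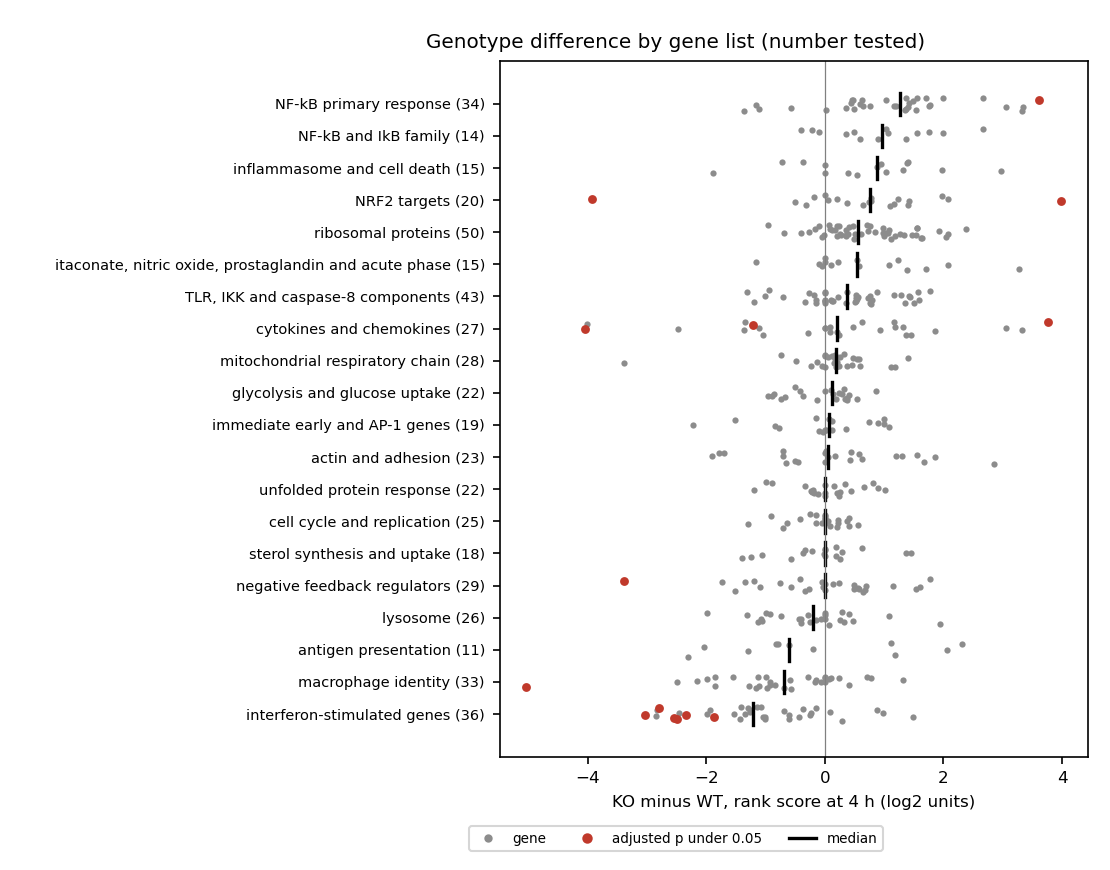
KO minus WT rank score at 4 h (log2 units) of every tested gene of 20 lists, ordered by the median of each list (black bar), with the number of genes tested in brackets; red points have an adjusted p under 0.05. The NF-kB primary response stands at one end with a median of 1.27 and the interferon-stimulated genes at the other with -1.21.

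Of the 33 macrophage identity genes tested, 0 were called higher and 1 was called lower, 13 had both KO libraries below both WT libraries (39.4%, against 8.45% of all genes) and 5 above (15.2%, against 16.5%), and the median difference was -0.69. Without adjustment 5 were lower and 0 higher at a p under 0.05. Fcgr1, the high-affinity receptor for immunoglobulin G, was the gene that fell and had the largest difference among the genes called. Its best summit lay near the start of the gene (chromosome 3, 96282909 to 96293969) in all 4 libraries. It held ranks 185 and 186 in WT and 5714 and 6509 in KO, with replicates close together in each genotype (difference -5.04 ± 0.60, adjusted p = 0.00164). Lpl, which encodes lipoprotein lipase, held ranks 897 and 1008 in WT and 7901 and 3646 in KO (difference -2.50 ± 0.85, adjusted p = 0.425). Maf, a transcription factor of resident macrophages, held ranks 729 and 365 in WT and 2559 and 2060 in KO (difference -2.15 ± 0.90, adjusted p = 0.63). Neither passed the test, although the genotypes did not overlap.

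Among negative feedback regulators 29 genes were tested, 0 were called higher and 1 was called lower, and the median difference was 0. Il4ra, the interleukin-4 receptor chain, fell. It held ranks 148 and 137 in WT and 1998 and 1107 in KO, mostly at summits at its far end (difference -3.38 ± 0.61, adjusted p = 0.0273). The call was lost without WT replicate 1, WT replicate 2 or KO replicate 1 (adjusted p = 0.0933, 0.0976 and 0.127) and with the gene span alone (-1.19, adjusted p = 1). Of 20 tested targets of NRF2, the regulator of the antioxidant response, 1 was called higher and 1 lower, with a median of 0.76. Slc7a11, which imports cystine for glutathione synthesis, rose: its summit at the gene start held ranks 7469 and 11141 in WT and 709 and 353 in KO (difference 3.98 ± 0.57, adjusted p = 0.00803).

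Sqstm1, which encodes the autophagy receptor p62, was the NRF2 target called lower. It held ranks 592 and 509 in WT and had no summit in either KO list (difference -3.93 ± 0.70, adjusted p = 0.0267). The summit of WT replicate 1 lay at its far end, also in the region of Mrnip, and that of WT replicate 2 near its start. The adjoining gene Mrnip held ranks 483 and 1132 in WT and 94 and 95 in KO (difference 2.97 ± 0.81, adjusted p = 0.248). With gene regions extended by 3 kb instead of 1 kb, the difference of Sqstm1 became 2.39 (adjusted p = 0.311). A KO summit of better rank than the WT summits thus lay within 3 kb of the gene but not within 1 kb. The call was also lost without any 1 of the 4 libraries (adjusted p between 0.0827 and 0.109).

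Among 15 inflammasome and cell death genes, 0 were called in either direction, and the median difference was 0.89. Of these, 6 lay above in both KO libraries (40%, against 16.5% of all genes) and 0 below (against 8.45%). At an unadjusted p under 0.05, 4 were higher and 0 lower. Bcl2a1a, of a family of survival genes with near-identical copies that can share reads, had no summit in WT replicate 1, rank 17143 in WT replicate 2, and ranks 995 and 1161 in KO (difference 2.97 ± 0.61, adjusted p = 0.0672). Among 15 genes of itaconate, nitric oxide, prostaglandin and acute phase metabolism, 0 were called in either direction, 3 were higher and 0 lower at an unadjusted p under 0.05, and the median was 0.54. Its member Clec4e, a receptor for mycobacterial glycolipid, held ranks 2261 and 1599 in WT and 133 and 288 in KO (difference 3.28 ± 0.65, adjusted p = 0.0549). Ptgs2, which encodes cyclooxygenase 2, held ranks 403 and 171 in WT and 49 and 131 in KO (difference 1.71 ± 0.71, adjusted p = 0.626). None of these 3 genes overlapped between the genotypes.

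Of 11 antigen presentation genes 0 were called, and 2 were higher and 2 lower at an unadjusted p under 0.05. The members lay on both sides of 0, with 4 above in both KO libraries (36.4%, against 16.5% of all genes) and 6 below (54.55%, against 8.45%). Cd40, a costimulatory receptor of the TNF receptor family, held ranks 1720 and 2128 in WT and 454 and 330 in KO (difference 2.31 ± 0.54, adjusted p = 0.131). Tapbp, which loads peptides on class I molecules, held ranks 43 and 39 in WT and 244 and 167 in KO (difference -2.30 ± 0.66, adjusted p = 0.275), at summits also in the region of Rgl2. The 50 ribosomal protein genes had a median difference of 0.56, 0 calls, and 7 higher and 0 lower at an unadjusted p under 0.05. Of these 50, 22 lay above in both KO libraries (44%, against 16.5% of all genes) and 1 below (2%, against 8.45%). Glycolysis, the respiratory chain, sterol synthesis, the cell cycle, the unfolded protein response, the lysosome, immediate early genes and actin and adhesion genes had 0 calls each and medians between -0.20 and 0.18. In each of these lists between 0 and 4 genes were higher and between 0 and 2 lower at an unadjusted p under 0.05.

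Genes with large differences in these lists did not pass either. Fos, an immediate early gene, held ranks 90 and 87 in WT and 362 and 468 in KO (difference -2.22 ± 0.75, adjusted p = 0.425). Atf3, a stress-induced transcription factor, stood at -1.52, and Klf10 at 1.08. Among lysosomal genes the cathepsins lay on both sides of 0, Ctss at -1.98, Ctsa at -1.31 and Ctsz at 1.94. The glycolytic enzymes Hk2, Gpi1 and Pgk1 stood at -0.96, -0.90 and -0.86. Of the respiratory chain, Atp5a1 stood at 1.40, at a summit shared with Haus1 in 3 libraries, and Cycs at 1.18. In sterol synthesis and uptake Mvd (1.45) shared its summit with Cyba, Srebf2 stood at 1.37 and Insig1 at -1.41. The cell cycle genes Mcm4, Cdk6 and Cdkn1a stood at -1.29, -0.91 and -0.71, Mcm4 at a summit shared with Prkdc. Canx, a chaperone of the endoplasmic reticulum, stood at -1.20, and Atf4 held ranks 27 and 18 in WT and 67 and 29 in KO. Icam4 (2.86, adjusted p = 0.0556) shared its KO and WT summits with Icam1, and Itgal and Coro1a stood at 1.85 and -1.90. The other largest differences were 2.38, 2.08 and 2.05 for the ribosomal genes Rps15, Rpl23 and Rpl9, 2.08 for the NRF2 target Prdx1, 2.05 for H2-DMa at a summit shared with Brd2, 2.07 for Saa3, 1.97 for Bcl2a1b, -1.88 for Bbc3 and -1.73 for the feedback phosphatase Dusp2. Among the markers of other cells, Bst2 stood at -1.94, Csf3r at 0.68, Xcr1 at -0.66, Flt3 at 0.40, Mmp8 at 0.28, Lck at 0.07 and Cd3d at 0.06. Apart from Icam4, the genes named after Fos had adjusted p-values of 0.199 or more.

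The remaining genes called higher belonged to none of the lists. Ifi205, of the interferon-inducible HIN-200 family whose copies are alike in sequence, held ranks 3470 and 3345 in WT and 472 and 289 in KO (difference 3.21 ± 0.61, adjusted p = 0.0436). Clcn7, a lysosomal chloride transporter, held ranks 4207 and 5750 in WT and 1040 and 484 in KO (difference 2.79 ± 0.51, adjusted p = 0.0321). Rasgrp1, an activator of Ras, held ranks 6971 and 9777 in WT and 1619 and 2268 in KO (difference 2.00 ± 0.35, adjusted p = 0.0267). In all 3 genes both KO libraries ranked well ahead. Ifi205 lost its call without any 1 of the 4 libraries (adjusted p between 0.0592 and 0.161), Clcn7 without either WT replicate or KO replicate 2 (0.0635, 0.132 and 0.104), and Rasgrp1 without either WT replicate or KO replicate 1 (0.066, 0.135 and 0.0588). Slc1a2, a glutamate transporter, and Cd69, an early activation receptor, had no summit in either WT list. Slc1a2, which had no summit in the shortened lists of other times, held ranks 3254 and 4054 in KO (difference 1.21). Cd69 held ranks 3829 and 4833 in KO (difference 0.96 ± 0.15, limma adjusted p = 0.0116). It differed by 0 in untreated cells and at 6 h and by -0.18 at 2 h, so its small SE may come largely from groups at or near 0. The other 6, Fam102b, Ift46, Htra1, Tmem235, Gnl2 and Slco3a1, had differences between 0.81 and 2.14. Of these, Fam102b lost its call without any 1 of the 4 libraries, and Ift46, Htra1 and Slco3a1 without either WT replicate (adjusted p between 0.0557 and 0.166 over these fits).

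Of the genes called lower outside the lists, Glipr1 had the largest difference, with ranks 244 and 305 in WT and 6562 and 2953 in KO (difference -4.01 ± 0.62, adjusted p = 0.0116; 0.0606 without WT replicate 1 and 0.0592 without KO replicate 1). Wfdc18, a small secreted protein of the WAP family, held ranks 2125 and 1865 in WT and had no summit in KO, and it was at 0 in the shortened lists of all other times (difference -2.08; its call was lost with gene regions extended by 3 kb, adjusted p = 0.511). The others were Vma21, Gm5431, Ascc2, Gm8369, Phf11d, Col9a3 and Trim12a, with differences between -1.60 and -0.55, and Ascc2 lost its call without either KO replicate (adjusted p = 0.0551 and 0.0504). Gm8369 and Trim12a have related copies nearby, so their values are uncertain. Of the 90 best summits of the 25 called genes whose start is in the promoter table, 60 lay within 1 kb of the start, 22 in the gene body and 8 at the far end.

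The difference between the genotypes at 4 h was set beside that at the other times, whose libraries are separate from those of 4 h. Of the 34 genes called at 4 h, 5 were also called in the same direction at 6 h (Traf1, Slc7a11, Fcgr1, Ccl7 and Ccl5), 1 at 2 h (Il4ra) and 0 in untreated cells. Of the same 34, 23 differed by exactly 0 in untreated cells, 20 at 2 h and 11 at 6 h. A gene with no summit in the shortened lists of either genotype has a difference of 0. Such a gene cannot be called at that time, and its 0 does not show that the genotypes were equal. The calls over all genes tested were 112 at 6 h (1.32%; 1.13% higher in KO and 0.189% lower), 6 at 2 h (0.0708%; 0.0118% higher and 0.059% lower) and 116 in untreated cells (1.37%; 0.649% higher and 0.72% lower). The shortened lists of 6 h touched 4386 and 2693 genes in WT and 4724 and 5885 in KO. Within 1 kb of a gene start lay 36.4% and 21.8% of their summits in WT and 40.0% and 51.0% in KO. The part of WT replicate 2, the shortest list, in the differences at 6 h was not tested. Across the 8475 genes, the KO minus WT differences at 4 h correlated with those at 6 h at Pearson r = 0.249, at 2 h at 0.152 and in untreated cells at -0.031. These correlations are across genes, which are not independent replicates, and carry no test.

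Ccl5 differed by 0.56 at 2 h, 3.77 at 4 h and 5.33 at 6 h (adjusted p = 5.14e-04 at 6 h), and by 0 in untreated cells. Slc7a11 differed by 0.24, 3.98 and 3.94, and Traf1 by 0.49, 3.62 and 2.61. Fcgr1 differed by -2.44, -5.04 and -3.81, and by -0.13 in untreated cells. Its difference at 4 h was larger than that in untreated cells by the contrast of the 2 differences (-4.91 ± 0.85, limma adjusted p = 0.0389). That call was lost without any 1 of the 4 libraries of 4 h (adjusted p between 0.0566 and 0.075) and under 6 of the other 10 settings (between 0.0566 and 0.433), among them the lists as deposited, genes rather than summits ranked and the replicate number as a block. Il4ra was already lower at 2 h (-4.22, adjusted p = 0.0261), with -3.38 at 4 h and -2.21 at 6 h.

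The interferon-stimulated genes had a median difference of -0.43 at 2 h, -1.21 at 4 h and 0.09 at 6 h, and 0 in untreated cells. The difference of medians between times was not tested. Oasl1 differed by -2.49 at 4 h and 1.74 at 6 h, and the contrast of the 2 passed (-4.23 ± 0.69, adjusted p = 0.0331). It passed without any 1 of the 4 libraries of 4 h but not under 5 of the other 10 settings (adjusted p between 0.0595 and 0.776), among them the lists as deposited, genes rather than summits ranked and the replicate number as a block. Rsad2 stood at -2.54 at 4 h and -1.12 at 6 h, and Ifit3b at -2.34 and 0.26, without a call on the contrast. The NF-kB primary response had medians of -0.06 at 2 h, 1.27 at 4 h and 1.16 at 6 h. Cxcl1 and Il10 did not pass at 4 h but did at 6 h, at 7.17 (adjusted p = 5.14e-04) and -3.86 (adjusted p = 0.0174), and neither was called on the contrast of 4 h with 6 h. Contrasts of 4 h with another time passed for 14 genes against untreated cells (0.165%; 0.0826% in each direction), 1 against 2 h (0.0118%) and 11 against 6 h (0.13%; 0.0354% higher and 0.0944% lower). The libraries of 4 h carry 1 series of peak-name codes and those of other times carry others, so whatever these codes mark cannot be told apart from time, while KO and WT at 4 h share theirs.

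**Figure D4:**
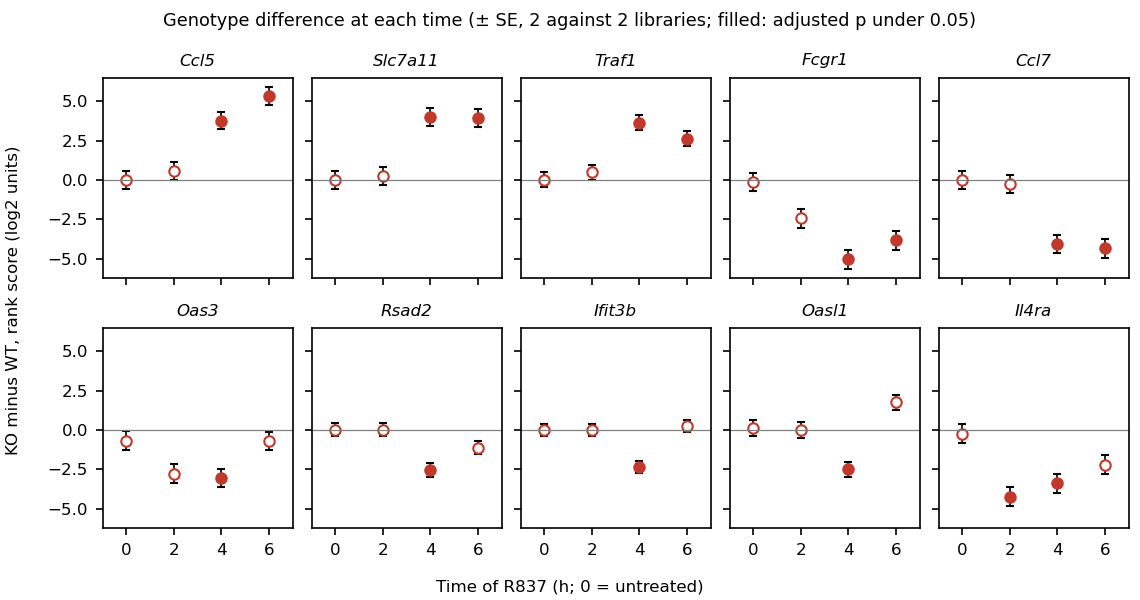
KO minus WT rank score (log2 units, ± SE from limma, 2 against 2 libraries) in untreated cells and after 2, 4 and 6 h of R837 for 10 genes called at 4 h, with filled points at an adjusted p under 0.05. Ccl5, Slc7a11, Traf1, Fcgr1 and Ccl7 are filled at both 4 h and 6 h, Il4ra at 2 h and 4 h, and Oas3, Rsad2, Ifit3b and Oasl1 at 4 h alone.

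The genes that R837 moved at 2 h, taken over both genotypes from libraries other than those of 4 h were compared between the genotypes at 4 h. Among 410 genes that rose at 2 h (4.84% of those tested), 3 were called higher in KO at 4 h and 2 lower (0.732% and 0.488%, against 0.165% and 0.236% of all genes). Of these 410, 144 lay above in both KO libraries (35.1%, against 16.5% of all genes) and 52 below (12.7%, against 8.45%). Without adjustment 68 were higher and 15 lower at a p under 0.05, and the median was 0.19 (0.29 without KO replicate 1). Among 2039 that fell at 2 h (24.1%), 0 were called higher and 1 lower, 260 lay above in both KO libraries (12.8%) and 217 below (10.6%), and the median was 0. Of these, 76 were higher and 48 lower at an unadjusted p under 0.05.

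The place of summits along genes was similar in the 4 libraries. Within 1 kb of a gene start lay 34.6% and 38.9% of the WT summits and 41.0% and 41.1% of the KO summits in the shortened lists, so that the KO mean was 4.25 percentage points higher. With the 4 lists at 16391 summits each it was 2.79 points higher. In the lists as deposited, where the KO lists are longer than the WT lists, the KO mean was 1.82 points lower. With 2 against 2 libraries the smallest two-sided p of an exact permutation test is 0.333, and no test was made.

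**Figure D5:**
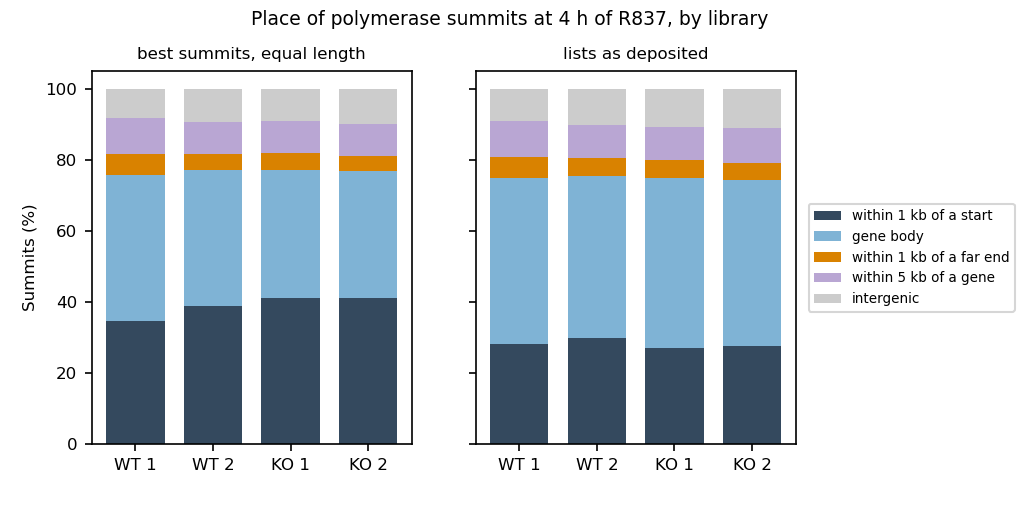
Share of polymerase summits (%) by place along genes in the 4 libraries at 4 h of R837, in lists shortened to 8394 summits (left) and as deposited (right). Shares near gene starts are 34.6% to 41.1% at equal length, and differ less between the genotypes in the deposited lists.

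At equal length (16391 best summits, partners within 500 bp), replicates shared 65.2% of summits in WT and 65.7% in KO, and pairs of 1 KO and 1 WT list shared 57.7% to 62.8%. Merging these summits gave 26275 regions, of which 6585 held a summit in all 4 libraries, 1484 in both KO and neither WT, and 1209 in both WT and neither KO. Many of the best-ranked regions of both kinds lay in the same genes: Tnfaip3, Zeb2, Kmt2e, Tnip3 and Fcer1g each held both a KO and a WT region. At Tnfaip3 the KO region was chr10:19012763-19012793 (ranks 42 and 73) and the WT region chr10:19014991-19015002 (ranks 212 and 229), both near the start. In these loci each genotype thus had summits, at different positions.

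Regions with no summit of the other genotype within 5 kb, in the full deposited lists, numbered 603 for KO and 66 for WT. The KO lists are the longer ones, as given above. Of the 603, 29.4% lay near a gene start, 37.7% in gene bodies and 23.1% between genes. The best-ranked lay in Rnf213, an interferon-inducible ubiquitin ligase (chr11:119483483-119483555, ranks 1319 and 1104), at the start of Ern1, the sensor IRE1α of the unfolded protein response (chr11:106487754-106487779, ranks 2976 and 2875), and in Acsl1, a fatty acid activating enzyme (chr8:46515698-46515721, ranks 3003 and 2870). A further one lay 1867 bp from Batf, an AP-1 family transcription factor. Of the 66 WT regions, 59.1% lay in gene bodies, and those of best rank included the far ends of Ctsl, a lysosomal protease, and Dab2, an endocytic adaptor.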

How the data were processed

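ChIP-seq of RNA polymerase II was done on macrophages grown from mouse bone marrow, with single-end reads of 75 nt, per the labels' protocols. The submitters' processing notes name GSNAP, MACS2 and the GRCm38 build; the tools' versions are not given in the sources used here. The deposited lists hold 1 summit position per peak, called per library, and a score, the authors' −log10 p-value (or q-value; the files do not say which). No read counts are in these lists, so depth is unknown, and an input sample is not used here.

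Lists were shortened to 8394 summits, and each of 21887 protein-coding genes (RefSeq, GRCm38.p6) was scored by its best rank within 1 kb. The 16 libraries in 8 groups were fitted together with limma 3.58.1 (R 4.3.3, eBayes with trend), with Benjamini-Hochberg adjustment over 8475 genes at 0.05. The code was also run on simulated data that gave every gene a minimum spread. That run does not bear on the calls of genes with most groups at 0. Starts with strand were known for 17492 genes. A summit in overlapping gene regions counted for each.

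The comparison and the gene lists were chosen with earlier results of these data known. Genes were named as follows: N4bp1, the 12 largest called differences in each direction, the 3 largest differences of each list, and some cytokines, chemokines and pathway components, all of which the rule allowed. A gene that the rule picks is not reported here. Nfkb1, Tnfaip3, Nfkbia, Sod2, Irf7, Isg15, Gbp5, Irf9, Ptgs2, Mrnip, the other called genes and the regions named were chosen after their values were seen.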

Additional observations from a re-analysis of the deposited data

Results flagged for a closer look

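Several genes were picked out because the KO minus WT difference at 4 h differed from that at another time by the limma contrast of the 2 differences (adjusted p under 0.05, 2 against 2 libraries at each time). Against untreated cells the contrast was -4.91 for Fcgr1, -2.08 for Wfdc18, -1.62 for Vma21, -1.22 for Il23a and -0.94 for Gm8369, all of which stood lower in KO at 4 h. It was 1.21 for Slc1a2 and 1.05 for Tmem235, which stood higher. For Ndufc2 (-1.15), Tlk1 (-1.01), Tex261 (1.05), Rnf26 (1.56), Gm30990 (1.11) and Pdcd4 (1.11) the difference at 4 h was 0, so the contrast came from the untreated libraries. Gm30990 and Pdcd4 had the same values. For Scarb1 (1.72) the difference was -0.08 at 4 h and -1.80 in untreated cells.

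Against 2 h only Wfdc18 passed, at -2.08. Against 6 h the contrast was -4.23 for Oasl1, -2.08 for Wfdc18, -1.85 for Vma21, -1.34 for Il23a, -0.94 for Gm8369, 1.21 for Slc1a2 and 1.05 for Tmem235. Lcn2, which encodes the siderophore-binding lipocalin 2, had a contrast of -2.75, from a difference of 0.22 at 4 h and 2.97 at 6 h. Phtf2 and Tmem60 (both -1.37) and Gm128 (2.41) differed by 0 at 4 h. Wfdc18, Slc1a2, Tmem235 and Gm8369 had no summit in any of the other 12 shortened lists. Their contrasts therefore repeat the difference at 4 h against groups at 0 and show nothing more. Il23a differed by 0 in untreated cells and 0.12 at 6 h, and Vma21 by 0.03 and 0.26. The contrasts of these genes thus also largely repeat the difference at 4 h.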

How the results depend on the processing

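The counts of 14 genes higher and 20 lower in KO at 4 h became 33 higher with the lists as deposited, 53 higher with the number of summits as the score, and 24 higher without the variance trend. They became 13 lower with the gene span alone or extended by 3 kb, and 0 and 0 with the 4 h libraries alone, at 8394 or at 16391 summits. Leaving out 1 library gave 9 to 64 higher and 15 to 46 lower.

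For the contrasts with other times, lists as deposited, 1 rank per gene and the replicate block each gave 0 calls in either direction, except 3 lower against 6 h with lists as deposited. Leave-one-out fits gave, against untreated cells, 2 to 36 higher and 6 to 29 lower, against 2 h, 1 to 32 and 1 to 19, and against 6 h, 2 to 22 and 10 to 32.

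The replicate block (replicate number as a term) gave 10 higher and 18 lower at 4 h and kept 28 of the 34 calls. The labels give no pairing, and same-numbered KO and WT libraries deviated together at r = -0.03. Sqstm1 turned to 2.39 with gene regions extended by 3 kb, and N4bp1 ranged from -0.015 (without KO replicate 2) to 1.12 when 1 library was left out.

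The list medians moved as follows. The number of summits gave 0 for the NF-kB response, -0.5 for interferon-stimulated genes, 0 for cytokines and 0 for genes that rose at 2 h. Lists as deposited gave 0.65 for cytokines, 0.42 for genes that rose and 0.15 for genes that fell, and 1 rank per gene gave 0 for genes that rose. Leave-one-out medians ran from 0.81 to 1.37 for the NF-kB response (a lone library being assumed to vary like the other groups), from -1.35 to -0.96 for interferon-stimulated genes, from 0 to 0.22 for cytokines, and from 0.15 to 0.29 for genes that rose.

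Summits near gene starts turned to -1.82 percentage points with lists as deposited. WT-only regions numbered 630 with absence judged in deposited lists and 615 at 1000 bp. With no summit of the other genotype within 5 kb there were 603 KO-only and 66 WT-only regions, an alternative chosen after seeing the data. Depth is unknown, so absence from a list is not absence of polymerase.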
